A study of Mus musculus with 3 samples.

Results

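The genes described here are 8 transcription factors and cofactors of early B-cell development: Bach2, Pou2af1, Foxo1, Tcf3, Foxp1, Ets1, Sox4 and Hhex. They were measured as ratios of testosterone to placebo in mouse bone marrow. They were chosen by name after their testosterone to placebo ratios were known, so those ratios are given as a description of the genes, without a test. All 8 were found. They had 17 spots with 1 annotated gene, of which 12 carried a value on every array and 5 did not. The array held 11552 spots in all. With control spots left out, 6039 had a value on every array, and 4554 of these had 1 annotated gene, for 3462 named genes.

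Each of 3 two-colour spotted arrays (T1, T2 and T3) set the marrow RNA of 1 C57BL/6 mouse given a testosterone pellet against that of a matched mouse given a placebo pellet (n = 3 pairs). The design text describes both mice of a pair as castrated, and the labels of the testosterone samples date the castration to 7 weeks of age. Pellets of 12.5 mg with a 60-day release were given for 4 weeks, and the mice were 17 weeks old at collection. The testosterone sample carried the dye Cy5 on T1 and on T3, and Cy3 on T2. The comparison asks what androgen replacement changed in castrated mice, with no intact mice among the samples analysed here. The tissue is labelled bone marrow, while the protocol describes RNA taken from pulverized bone.

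B lymphocytes are made in the marrow, where multipotent progenitors pass through pro-B and pre-B stages that are marked by rearrangement of the immunoglobulin genes. A network of transcription factors sets this course. E proteins such as that of Tcf3 and the forkhead factor Foxo1 act early, with Ebf1 and Pax5, while factors such as Bach2, Ets1 and the coactivator Pou2af1 also act in mature B cells. In mice, loss of androgen is known to enlarge, and androgen to reduce, B-cell production in the marrow.

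The promoters of 4 of the genes are shown. Bach2, Pou2af1 and Sox4 had the lowest ratios, Sox4 only by its spot with a value on every array. The Sox4 window held an E-box, a motif of the family of Tcf3, and the Tcf3 window held an ETS site, a motif of the family of Ets1. The Foxp1 windows held motifs as well and are not shown. The windows come from RefSeq on GRCm38.p6 and run from 250 bases before to 50 bases after the gene's start, read 5′ to 3′ on the gene's own strand. They lie at chr4:32417185-32417484 on the plus strand (Bach2), chr9:51213440-51213739 on the plus strand (Pou2af1), chr13:28953650-28953949 on the minus strand (Sox4) and chr10:80433586-80433885 on the minus strand (Tcf3). Capitals mark a match to any of the 7 motifs named in the next paragraph.
Bach2: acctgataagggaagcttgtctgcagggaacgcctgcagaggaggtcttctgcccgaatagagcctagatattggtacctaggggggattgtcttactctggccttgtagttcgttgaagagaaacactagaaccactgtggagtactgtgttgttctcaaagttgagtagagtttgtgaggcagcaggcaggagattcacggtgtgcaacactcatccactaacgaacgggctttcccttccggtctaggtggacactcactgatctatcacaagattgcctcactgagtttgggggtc
Pou2af1: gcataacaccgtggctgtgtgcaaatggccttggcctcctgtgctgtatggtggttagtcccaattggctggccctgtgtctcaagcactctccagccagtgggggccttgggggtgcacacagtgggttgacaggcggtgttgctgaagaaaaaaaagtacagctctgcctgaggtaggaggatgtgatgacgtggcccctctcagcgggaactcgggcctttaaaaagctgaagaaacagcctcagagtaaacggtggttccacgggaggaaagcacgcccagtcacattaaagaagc
Sox4: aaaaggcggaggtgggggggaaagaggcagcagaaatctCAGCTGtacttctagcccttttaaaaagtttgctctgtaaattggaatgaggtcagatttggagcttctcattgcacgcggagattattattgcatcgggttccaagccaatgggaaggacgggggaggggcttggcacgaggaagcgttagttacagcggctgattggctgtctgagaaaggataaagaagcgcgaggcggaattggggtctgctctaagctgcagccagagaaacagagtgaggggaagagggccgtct
Tcf3: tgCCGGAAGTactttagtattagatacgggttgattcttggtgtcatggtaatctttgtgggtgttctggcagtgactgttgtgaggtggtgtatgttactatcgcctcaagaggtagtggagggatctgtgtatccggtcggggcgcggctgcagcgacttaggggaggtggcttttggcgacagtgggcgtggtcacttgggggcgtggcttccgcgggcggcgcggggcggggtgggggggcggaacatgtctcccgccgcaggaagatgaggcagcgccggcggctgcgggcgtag

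The motifs were the octamer ATGCAAAT, the E-boxes CAGCTG and CAGGTG, the ETS site CCGGAAGT, the forkhead site TGTTTAC, the BACH and AP-1 core TGAGTCA and the SOX site AACAAAG, searched on both strands. RefSeq held 9 windows for 7 of the genes, Foxp1 having 3, and 5 of the 9 windows held a match. The share of all windows with a match to any of the 7 motifs was not computed, so nothing is read from this count. In the Sox4 window, CAGCTG began 211 bases before the start, and this motif was in 16.3% of 32851 mouse promoter windows. In the Tcf3 window, CCGGAAGT began 248 bases before the start, a motif found in 3.89% of all windows. The 3 Foxp1 windows held CAGGTG once (20.2% of all windows) and AACAAAG in each of the other two (5.85%). No match overlapped another. The letters of the octamer (1.74% of all windows), the forkhead site (3.65%) and the BACH core (5.2%) were in none of the 9 windows, and the windows of Bach2, Pou2af1, Foxo1 and Hhex held none of the 7 motifs.

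Values are taken as log2 of testosterone over placebo, so that a negative value means lower with testosterone. Base 2 was inferred, since the deposited values run from -3.37 to 4.47, and the direction is likely rather than settled, since it rests on the design text, where testosterone is called the experimental channel. Pearson correlations across the 6039 spots, which are not independent, were 0.42 between T1 and T2, 0.49 between T1 and T3 and 0.73 between T2 and T3. The spread of the spots was wider on T2 (SD 0.49) than on T1 (0.32) and T3 (0.32). Spot intensities were not analysed here, which leaves the height of each spot over background unknown, and the number of arrays limits the precision.

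All 8 genes lay below 0 on all 3 arrays. Their median ratio was -1.27, -1.19 and -0.96 on T1, T2 and T3, against medians of -0.038, -0.12 and -0.055 on the same arrays over all 3462 genes. Over all genes, 33.9% lay below 0 on every array. In the limma fit across all spots, with Benjamini-Hochberg adjustment, 11 of the 12 spots passed as lower, against 1.71% of all spots tested, and 0 passed as higher, against 1.13%. With the spots of a gene averaged, 7 of the 8 genes passed as lower, against 3.24% of all genes, and 0 as higher, against 1.68%. Hhex, with a single spot, did not pass in either fit. Nothing is read from these counts, because the same ratios chose the genes. In whole marrow, fewer cells of a type and less RNA per cell cannot be told apart.

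**Figure D1:**
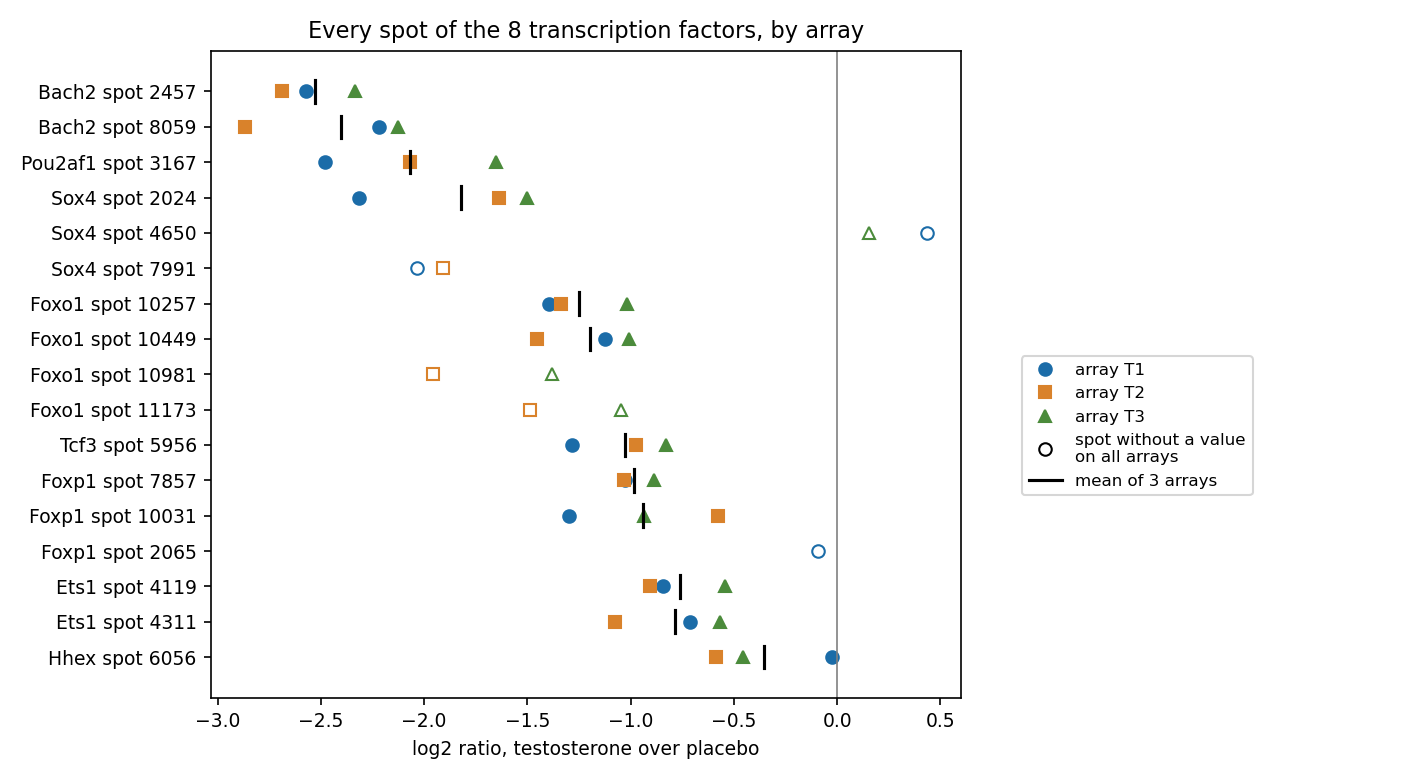
Log2 ratio of testosterone to placebo (horizontal axis) for each of the 17 spots of the 8 genes, with 1 symbol per array and a bar at the mean of the spots measured on all 3 arrays. Filled symbols, the spots used for the gene means, all lie below 0, and the open symbols of Sox4 spot 4650 lie above 0, at 0.43 on T1 and 0.15 on T3.

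Of the factors that open the lymphoid and B-cell course, Tcf3 encodes the E2A proteins, basic helix-loop-helix factors without which B-cell development does not begin. Its single spot had ratios of -1.28, -0.97 and -0.83 on T1, T2 and T3. The mean was -1.03 ± 0.23 (SD, n = 3), or 2.04-fold lower with testosterone, and the values of the 3 pairs lay within 0.45 of each other. The spot carries Entrez ID 21423, that of the E2A gene, and not that of Tcf7l1, a different gene that has also been called Tcf3 and has no value on any of the 3 arrays. Hhex, a homeobox factor of early lymphoid progenitors that endothelial and liver cells use as well, had -0.023, -0.59 and -0.46 on T1, T2 and T3. It stood apart from the other genes in that T1 was close to 0, and its mean of -0.36 ± 0.30 was the nearest to 0 of the 8.

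Foxo1, Sox4 and Foxp1 act in B-cell precursors. Foxo1, a forkhead factor that signalling through PI3 kinase and Akt keeps out of the nucleus, drives the interleukin-7 receptor and the recombinase genes there. Its spot 10257 had -1.40, -1.34 and -1.02 on T1, T2 and T3, and its spot 10449, annotated with the same sequence entry, had -1.13, -1.46 and -1.01. The gene mean was -1.22 ± 0.19, or 2.33-fold lower, and the spots differed from each other by 0.27 at most. A further pair of Foxo1 spots, from another sequence entry and without a value on T1, had -1.96 and -1.49 on T2 and -1.38 and -1.05 on T3. These lay on the same side and were as low as or lower than the mean of the spots used on each of those arrays.

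Foxp1, a forkhead repressor required for the step from pro-B to pre-B cells, had 2 spots from different sequence entries. Spot 7857 had -1.03, -1.03 and -0.89 on T1, T2 and T3, and spot 10031 had -1.30, -0.58 and -0.94. The means of the 2 spots were close (-0.98 and -0.94), while on T2 the spots lay 0.45 apart. The gene mean was -0.96 ± 0.18, or 1.95-fold lower. A Foxp1 spot outside the means, number 2065, had a value on T1 alone, of -0.092, which was 0.94 and 1.21 above the others on that array.

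Sox4, an HMG-box factor that pro-B cells need to survive, had ratios of -2.32, -1.64 and -1.50 on T1, T2 and T3 at spot 2024. The mean was -1.82 ± 0.44, or 3.53-fold lower, and T1 lay lowest. A different Sox4 sequence entry, at spot 7991, gave -2.04 on T1 and -1.91 on T2, with no value on T3. The Sox4 spots did not all behave alike: spot 4650, annotated with the same sequence entry as spot 2024, gave 0.43 on T1 and 0.15 on T3, with no value on T2. The gap between these same-entry spots was 2.75 on T1 and 1.66 on T3. Among 710 pairs of spots that share an entry on T1, the median gap was 0.09, the 95th percentile of the gaps was 0.40, and the Sox4 pair was the farthest apart. On T3 it was again the farthest apart of 608 pairs (median 0.12). With all 3 Sox4 spots averaged, the gene mean was -1.25 in place of -1.82.

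Ets1, Bach2 and Pou2af1 have known roles in later B cells. Ets1, the founding member of the ETS family, restrains the passage of B cells to plasma cells and is also active in T and NK cells. Its spot 4119 had -0.84, -0.91 and -0.54 on T1, T2 and T3, and its spot 4311, of the same sequence entry, had -0.71, -1.08 and -0.57. The spots lay within 0.17 of each other, and the gene mean was -0.77 ± 0.22, or 1.71-fold lower.

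Bach2, a leucine zipper repressor that pairs with small MAF proteins and holds down the plasma cell factor Prdm1, had the lowest mean of the 8. Spot 2457 had -2.57, -2.69 and -2.33 on T1, T2 and T3, and spot 8059, of the same entry, had -2.22, -2.87 and -2.13. The gene mean was -2.47 ± 0.28, or 5.53-fold lower, with single arrays between 4.69-fold and 6.85-fold. Among all genes, counted from the lowest, Bach2 held rank 4 on T1, rank 2 on T2 and rank 2 on T3. Pou2af1, the coactivator that binds Oct1 and Oct2 on octamer sites of immunoglobulin promoters, had -2.48, -2.07 and -1.65 on T1, T2 and T3 at its single spot. Its mean was -2.07 ± 0.41, or 4.19-fold lower, and it held rank 3 on T1, rank 6 on T2 and rank 8 on T3.

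**Figure D2:**
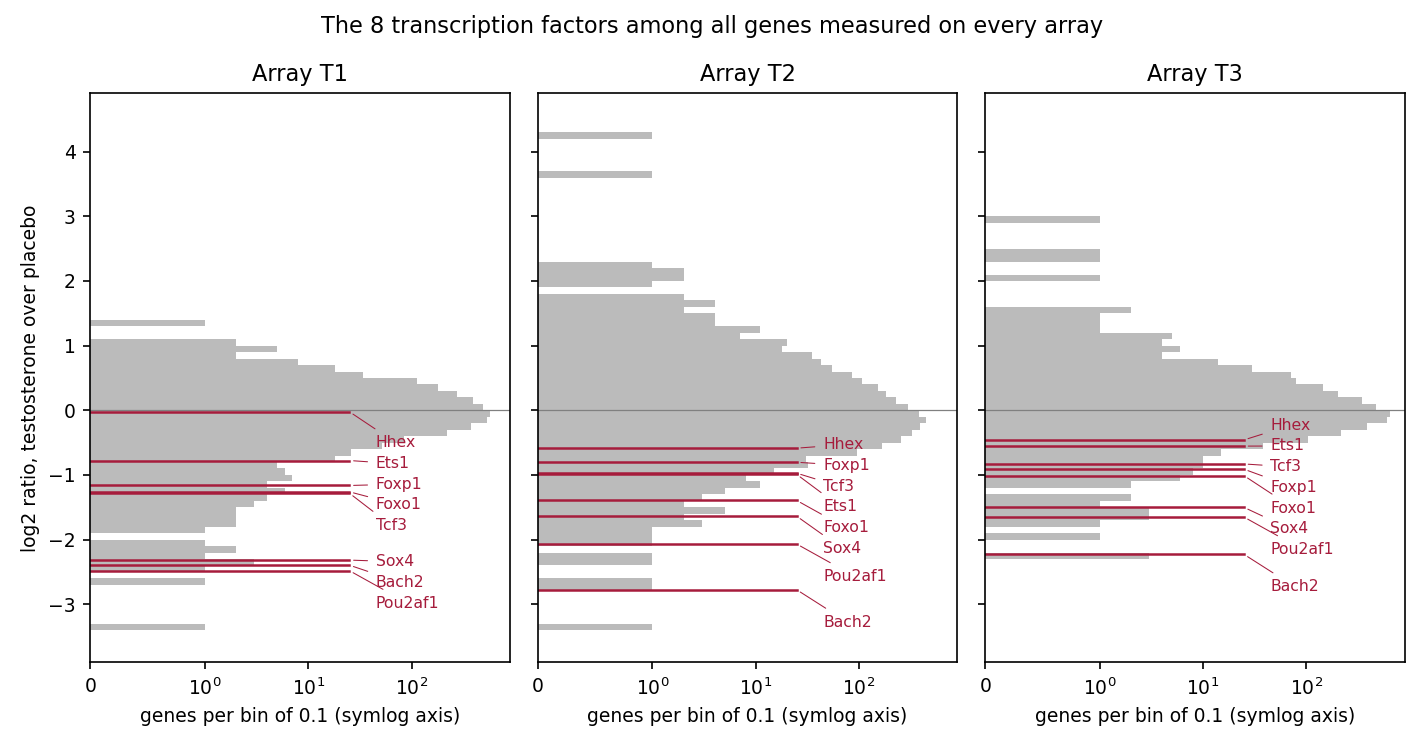
Histograms of the log2 ratio of testosterone to placebo (vertical axis) over the 3462 genes measured on all arrays, by array, in bins of 0.1 on a symmetric log axis of gene number, with the 8 genes marked by lines. Bach2, Pou2af1 and Sox4 (spot 2024) lie in the extreme lower tail of each array, and Hhex lies near 0 on T1 only.

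In order of the mean ratio the genes were Bach2, Pou2af1, Sox4, Foxo1, Tcf3, Foxp1, Ets1 and Hhex. With the sign of T2 turned, the order became Sox4 (-0.73), Pou2af1 (-0.69), Bach2 (-0.62), Foxp1 (-0.42), Tcf3 (-0.38), Foxo1 (-0.29), Ets1 (-0.11) and Hhex (0.035). Differences between neighbours in the first order, with signs as deposited, were taken within each array. Pou2af1 lay below Sox4 on all 3 arrays, by 0.25 ± 0.16 on average, Sox4 below Foxo1 by 0.60 ± 0.42 and Ets1 below Hhex by 0.42 ± 0.33 (SD, n = 3 arrays). The Sox4 step rests on spot 2024: with every spot measured on at least 2 arrays, Sox4 averaged -1.25 and Foxo1 -1.31, which turns their order, and Sox4 minus Foxo1 was -0.045, -0.22 and 0.44 on T1, T2 and T3. The other four differences between neighbours were smaller than their SD and had mixed signs. Bach2 minus Pou2af1 was 0.085, -0.71 and -0.58 on T1, T2 and T3, and Foxo1, Tcf3, Foxp1 and Ets1 formed a run in which no step exceeded its spread. The array nearest to 0 was T3 for 6 of the 8 genes, T1 for Hhex and T2 for Foxp1. The lowest array was T1 for 4 genes (Pou2af1, Sox4, Tcf3 and Foxp1) and T2, the array of opposite dyes, for the other 4.

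Other transcription factors of the same families and lineages mostly had ratios near 0. Lists of B-cell and lymphoid factors, factors of other blood and marrow lineages, and relatives or partners of the 8 held 38 further factors measured on all arrays. Of these, 2 passed as lower (against 3.24% of all genes) and 0 as higher, their median was -0.023 against -0.071 over all genes, and 34 of 38 means lay within 0.5 of 0. The 8 genes were chosen with their ratios known and were left out of these lists. Nothing is therefore read from the contrast between them and the other factors. Ebf1, Pax5, Ikzf3 and Spi1, which belong to the core of the B-cell or lymphoid programme, were listed as well. They had no value at any spot with 1 annotated gene and so could not be followed.

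The list of B-cell and lymphoid factors held 18 measured genes of 61, with a median of -0.003. Klf2, a factor of lymphocyte quiescence and trafficking, had -0.53, -0.65 and -0.66 on T1, T2 and T3 and fell by 0.61 ± 0.07 (1.53-fold lower, adjusted p = 0.0199 by limma, n = 3). Mef2c, which B-cell precursors and mature B cells use, had -0.70, -0.49 and -0.34 on T1, T2 and T3 and fell by 0.51 ± 0.18 (1.43-fold lower, adjusted p = 0.0467). Neither passed without T2 (adjusted p = 0.131 for Klf2 and 0.225 for Mef2c) or without T3 (0.243 for each), and Mef2c did not pass after median centring (0.0635). The other 16 did not pass. Among them Runx1 had 0.016 ± 0.14, Bcl11a -0.18 ± 0.14 and Bcl6 0.006 ± 0.48, and Egr1 ranged from -1.06 on T1 to 3.68 on T2.

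Of the relatives and partners, 0 of 3 BACH and small MAF partners passed (Bach1 0.15 ± 0.35, Mafg -0.12 ± 0.37), as did 0 of 4 forkhead relatives (Foxm1 -0.40 ± 0.27, Foxn3 -0.15 ± 0.03). Foxo3, the closest measured relative of Foxo1, had -0.012 ± 0.06 at its spot with a value on every array, while a second spot gave -0.68 on T1 and 0.66 on T3, with no value on T2. Foxp2 lay outside these counts, with values on T1 alone that differed by spot: -0.01, 0.169 and -1.483. In the E-protein and Id list 0 of 3 passed, with the helix-loop-helix partner Tal1 at 0.23 ± 0.15 and the inhibitor Id2 at 0.089 ± 0.26. Of 6 ETS relatives 0 passed (Ehf 0.62 ± 0.57, Gabpa -0.34 ± 0.17). Sox17, the single measured SOX relative, had 0.30 ± 0.05, and Tle5, of the Groucho family, had -0.23 ± 0.29, and neither passed. Of 6 factors of other lineages 0 passed as well (Ebf3 0.46 ± 0.19, Prrx1 0.46 ± 0.30).

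Lef1, a lymphoid HMG-box factor of pro-B and T cells, had no value on T3 and so lay outside these counts. It is named after its values were seen: they were -1.72 on T1 and -1.32 on T2.

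**Figure D3:**
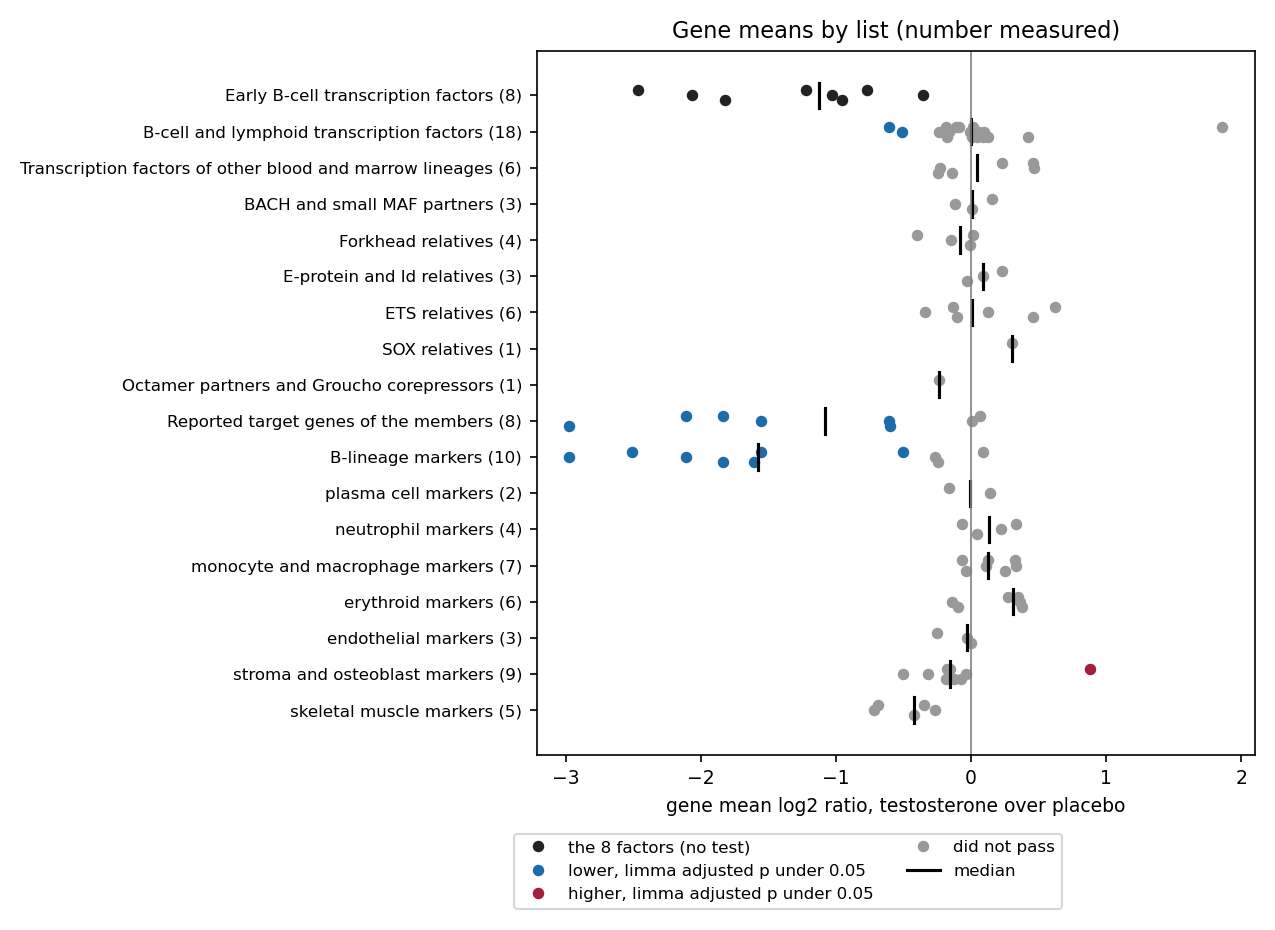
Gene mean log2 ratio of testosterone to placebo (horizontal axis) for each measured gene of each list, with the number of genes in parentheses and a bar at the median. The 8 genes have a median of -1.13, the target and B-lineage lists have medians of -1.08 and -1.58, and the other lists have medians between -0.42 and 0.31.

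Genes listed as targets of the 8 factors in B cells and other tissues were represented by 8 of 26, of which 6 passed as lower (against 3.24% of all genes) and 0 as higher (against 1.68%), with a median of -1.08 against -0.071 over all genes. Cd79b, which passes on signals from the B-cell receptor, had -2.14, -2.24 and -1.96 on T1, T2 and T3 (adjusted p = 7.73e-05 by limma, n = 3). Vpreb3, which binds immunoglobulin chains in B-cell precursors, had -3.35, -3.37 and -2.21 (adjusted p = 0.000518), and the kinase Blk had -1.64, -1.49 and -1.54 (adjusted p = 0.000235). Foxo1 is known to act on Il7r, on Klf2 and, through Klf2, on S1pr1 in lymphocytes, the first a growth factor receptor chain and the last a receptor for exit from tissues. Il7r had -2.08, -2.34 and -1.09 on T1, T2 and T3 (adjusted p = 0.00374, and 0.0611 without T2). S1pr1 had -0.51, -0.87 and -0.43 (adjusted p = 0.044), and did not pass without T2 (0.213), without T3 (0.221) or after median centring (0.056). Gadd45a (0.068 ± 0.03) and Cdkn1b (0.01 ± 0.20), which forkhead factors drive in other cells, did not pass.

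Markers of the B lineage were measured for 10 of 29 genes, and 7 passed as lower (against 3.24% of all genes) and 0 as higher (against 1.68%), with a median of -1.63, -1.52 and -1.31 on T1, T2 and T3. The list shares Cd79b, Vpreb3, Blk and Il7r with the targets, and the other 3 were Fcrla (-2.51 ± 0.22, adjusted p = 7.73e-05 by limma, n = 3), Siglecg (-1.61 ± 0.06, 0.000206) and Bank1 (-0.51 ± 0.02, 0.0402). Bank1 did not pass without T2 (0.188), without T3 (0.273) or after median centring (0.0556). The kinase Btk (-0.27 ± 0.12), the surface protein Ms4a1 (-0.25 ± 0.37) and Cd24a (0.087 ± 0.17), which other blood cells carry as well, did not pass. Both lists were drawn up with results of these samples known, so they are no independent evidence of the direction. Set against the B-lineage median of the same array, Bach2, Pou2af1 and Sox4 lay lower on all 3 arrays, by 0.77, 1.26 and 0.92 for Bach2. For Sox4 this holds at spot 2024 and not with every spot measured on at least 2 arrays, where Sox4 stood at -1.31, -1.775 and -0.67 on T1, T2 and T3, above the B-lineage median on T1 and T3 and below it on T2. Foxo1, Tcf3, Foxp1, Ets1 and Hhex lay above that median on all 3 arrays, Foxo1 by 0.37, 0.12 and 0.30 on T1, T2 and T3, and Hhex by 1.60, 0.93 and 0.86. With its further spots averaged in, Foxo1 lay just below that median on T2, with a difference of -0.042. Single markers lay lower still: Vpreb3 (mean -2.975) and Fcrla (-2.51) below Bach2 (-2.47), and Cd79b (-2.11) below Pou2af1 (-2.07). The 8 genes were chosen with these ratios known, so nothing is read from their place against the median.

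Ets1, Foxo1, Foxp1, Bach2 and Tcf3 are also expressed in T cells, and Hhex in endothelium. Of 19 T and NK cell markers 0 had a value on all arrays and 3 had any value, so these cells could not be followed. The 3 endothelial markers had a median of -0.10, -0.24 and 0.10 on T1, T2 and T3, and 0 passed. Skeletal muscle markers, of a tissue attached to the collected bones, had medians of -0.032, -0.82 and -0.45 on T1, T2 and T3 (5 genes, 0 passed). Like Hhex they were near 0 on T1 and lower on T2 and T3, and their part in the ratios of Hhex was not tested. The other 7 genes did not share that pattern, the nearest of them to 0 on T1 being Ets1 at -0.78.

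The genes nearest to each factor with a mean beyond 1 in size were found by Euclidean distance over the 3 array ratios, among the other named genes. Nearest to Bach2 were the B-cell genes Fcrla (distance 0.24), Cd79b (0.65) and Vpreb3 (1.12). Nearest to Pou2af1 were Cd79b (0.50), Pafah1b3, a subunit of an enzyme that inactivates platelet-activating factor (0.57), and the kinase Sbk1 (0.59). Sox4, at spot 2024, was closest to Cecr2, a bromodomain protein (0.21), and then to Pafah1b3 (0.24) and Sbk1 (0.26). Cecr2 had -2.39, -1.53 and -1.34 on T1, T2 and T3. Foxo1 had as neighbours Smarca4, the ATPase of a chromatin remodelling complex (0.18), the membrane protein Serinc5 (0.22) and the peptidase Dpp4 (0.26). Tcf3 was followed most closely of all, by the ceramide kinase Cerk (0.11), by Glcci1 (0.11) and by the sialyltransferase St6gal1 (0.14). With 3 arrays, such a distance describes the size of the ratios more than their pattern.

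**Figure D4:**
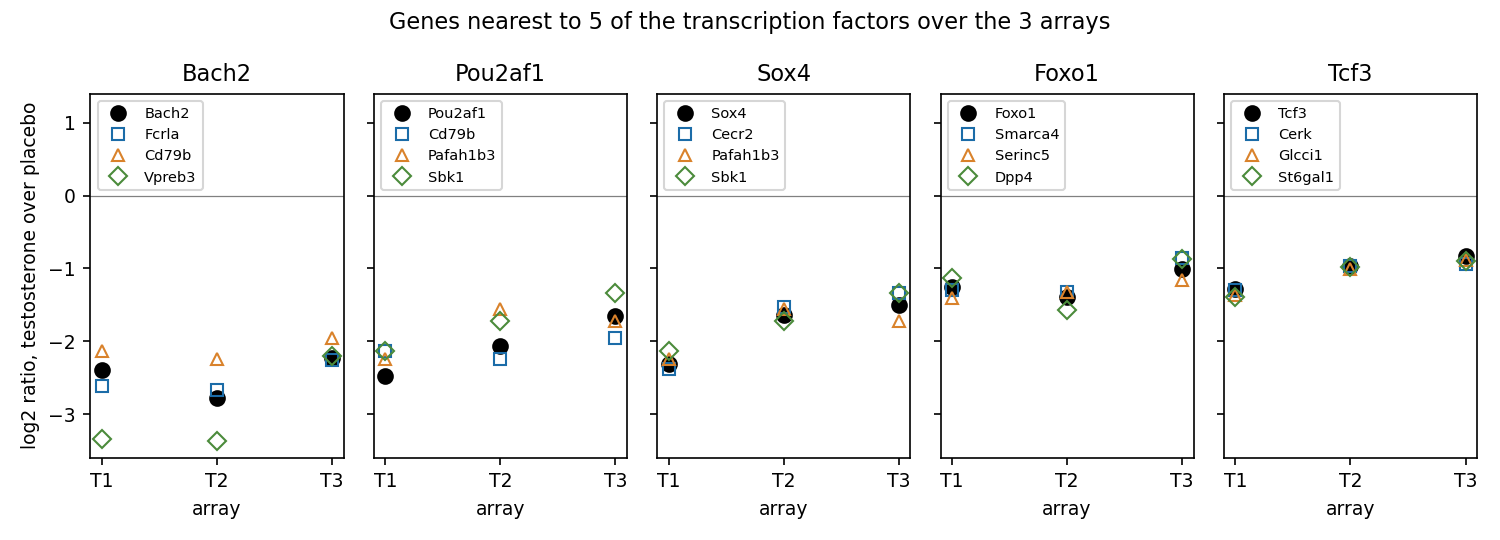
Log2 ratios of testosterone to placebo (vertical axis) on the 3 arrays for the 5 factors with a mean beyond 1 in size (filled circles) and for the 3 genes nearest to each (open symbols). For Tcf3 the symbols coincide, at distances of 0.11 to 0.14, while Vpreb3 lies 1.12 from Bach2.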

How the data were processed

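Bone marrow RNA of 3 pairs of castrated mice was compared on 3 two-colour arrays. The authors deposited 1 log ratio per spot and array, read here as log2 from the range. Its base, numerator, background correction and normalization are not stated in the labels or the file. Signs were kept as deposited. Per the labels' protocols, aminoallyl cDNA from total RNA was labelled with Cy3 or Cy5.

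Of the spots, 8050 had 1 gene in the platform annotation, 672 had several and 2830 had none. Symbols were updated through Entrez IDs (7880 spots, 5707 genes). Control or non-mouse spots (66, of which 12 had values on all arrays) were left out.

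Spots with values on all 3 arrays were tested against 0 across the whole table with limma 3.58.1 in R 4.3.3 (lmFit, eBayes, two-sided, Benjamini-Hochberg, adjusted p under 0.05), and again with the spots of a gene averaged. The procedure was tested on simulated data. Whether replicates were processed in separate batches is not known beyond the dye orientation.

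The 8 genes, the gene lists, the tests and the alternatives were chosen with earlier results of these data known. Named were all 8 genes, every gene of a list that passed or otherwise the 2 of smallest p, and the 3 genes nearest to each factor with a mean beyond 1. Further genes, Lef1, Runx1, Bcl11a, Bcl6, Egr1, Foxo3, Foxp2, Gadd45a and Cdkn1b, were named after their values were seen. Promoters are from RefSeq, GRCm38.p6. The alternatives were the sign of T2 turned, each array left out, a dye term, centring, scaling, spots on at least 2 arrays, robust eBayes and a threshold of 0.10.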

Additional observations from a re-analysis of the deposited data

How the results depend on the processing

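Since all 8 genes lay below 0 on each array, their means had to stay below 0 without any single array (8 of 8 each time) and with a dye term, which says nothing of stability. They also lay below 0 after centring, after scaling and with spots on at least 2 arrays. With T2 turned in sign, T1 and T3 together outweigh T2. A gene with similar ratios on all 3 arrays then keeps its sign at a smaller size, which says nothing of stability either. Of the 8 genes, 7 stayed below 0 with T2 turned, from -0.73 (Sox4) to -0.11 (Ets1), with Bach2 at -0.62, and Hhex turned to 0.035. Then 0 spots, 0 genes and 0 related genes passed by limma, and 20 spots, 19 genes and 0 related genes had an unadjusted p under 0.05. As deposited, 171 spots, 170 genes and 10 of 51 related genes passed. Leaving out single arrays gave 38 to 1095 spots, 33 to 623 genes and 5 to 17 related genes, the lowest counts of spots and genes coming without T3, the lowest of related genes without T2 and the highest without T1. As deposited 0 of the 10 related genes passed as higher, against 6 of 17 without T1, 3 of 13 with a dye term and 3 of 15 at the threshold of 0.10. Of the 8 genes themselves 8 passed as lower without T1, 6 without T2 (not Ets1 and Hhex) and 5 without T3 (not Foxp1, Ets1 and Hhex). Over all 3462 genes, 333 passed as lower without T1, 34 without T2 and 32 without T3. Nothing is read from the counts of the 8, because the same ratios chose the genes. A dye term gave 1309 spots and 385 genes, median centring 57 and 61, centring with scaling 816 and 297, and a threshold of 0.10 gave 1165 and 498. The cause was not tested. The share of higher genes among those that passed was 34.1% as deposited, 13.1% after centring, 55.6% after scaling, 46.8% with a dye term and 2.86% to 46.5% without single arrays (2.86% without T2, 3.03% without T3, 46.5% without T1). Of all named related genes, Cd79b, Blk, Vpreb3, Fcrla and Siglecg passed without each single array, after centring, with scaling, with a dye term and with robust eBayes. The test of the ratios against 0 is itself the paired analysis of the 3 mouse pairs, so no separate replicate block was fitted.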

Other observations

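Lists of markers of other marrow cells and of skeletal muscle held 36 measured genes, in 7 of 8 lists, with none for T and NK cells. Of these 0 passed as lower and 1 as higher (against 3.24% and 1.68% of all genes). The one was Grem1, which antagonises bone morphogenetic proteins outside the cell, at 0.45, 1.18 and 1.02 on T1, T2 and T3 (adjusted p = 0.0245 by limma, n = 3), which did not pass without T2 (0.198) or without T3 (0.243). It belongs to the stroma and osteoblast list, whose 9 measured genes had a median of -0.16, and the means of the other 8 lay below 0, from -0.50 ± 0.50 (Sparc) and -0.32 ± 0.76 (Col1a2) to -0.034 ± 0.16 (Kitl). Erythroid markers had a median of 0.31 over 6 genes, with Hbb-b1 at 0.35 ± 0.23 and Fech at 0.36 ± 0.26. The means of 2 of them lay below 0, Tfrc (-0.14 ± 0.17) and Ank1 (-0.096 ± 0.29). Monocyte and macrophage markers had 0.12 over 7 genes (Mertk 0.33 ± 0.09, Cd163 0.33 ± 0.18), of which 2 lay below 0 (Adgre1 -0.041 ± 0.19, Ccr2 -0.069 ± 0.55). Neutrophil markers had 0.13 over 4 genes (Itgam 0.33 ± 0.42, Mmp8 0.22 ± 0.33), with 0.64, 0.15 and -0.11 on T1, T2 and T3. Of these 4, Mmp9 had a mean below 0 (-0.068 ± 0.70). The plasma cell markers Xbp1 (-0.16 ± 0.30) and Jchain (0.14 ± 1.10) did not pass, and Jchain had 0.98, -1.11 and 0.55 on T1, T2 and T3. The endothelial receptors Kdr (-0.25 ± 0.26) and Tie1 (-0.033 ± 0.12) and the muscle genes Mylpf (-0.69 ± 0.52) and Ckm (-0.72 ± 0.79) did not pass.

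Further spots of the B-lineage list without a value on all arrays gave Fcrla at -1.78 on T1 and -1.46 on T3, Blnk, an adaptor of B-cell receptor signalling, at -0.50 on T1 and -0.87 on T2, and the B-cell receptor inhibitor Cd22 at -0.86 and -0.60 on T1 at its 2 spots. The complement receptor Cr2 had -0.12 on T1 and 0.008 on T3, and the IgE receptor Fcer2a had 0.003 and 0.012 on T1 and -0.30 and -0.50 on T3 at its 2 spots. Id3, an inhibitor of E proteins, had 0.22 and 0.30 on T2 and 0.007 and 0.27 on T3 at its 2 spots, and the zinc finger factor Ikzf1 had 0.51 on T1 alone. These genes are named after their values were seen and were not tested.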
